A study of Mus musculus with 24 samples.

Results

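The genes described here encode the proteins of the cytosolic ribosome. They were taken by symbol, as every row of the expression table whose name begins RPL or RPS followed by a digit or P, without the ribosomal S6 kinases. The rule gave 73 of 7493 rows. None of the 73 carried a pseudogene symbol, so no pseudogene could be set apart. RPLP0, the marker of the set, was above 0 in all 24 libraries. RPS19BP1, which encodes a protein that binds RPS19 and is not itself part of the ribosome, entered by its symbol, and RPS4Y1 has its human gene on the Y chromosome.

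Bulk RNA was sequenced from spleen, stomach, lung, liver, aorta, kidney, heart and brain, with 3 libraries of each and 24 in all. Every library came from SENCR-BAC transgenic mice, which carry a bacterial artificial chromosome with the human long non-coding RNA SENCR, and no group without the transgene was analysed here. The labels give no age, sex or strain, and they do not say which libraries share an animal, so p-values measure the spread between these libraries. The comparisons were therefore between tissues of transgenic mice.

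A ribosome has a small subunit, which decodes the messenger RNA and is built with RPS proteins, and a large subunit, which joins amino acids and is built with RPL proteins. Cells make these proteins in near-equal numbers, and growing or dividing cells need more of them. Their messenger RNAs characteristically begin with an unbroken run of pyrimidines, the terminal oligopyrimidine motif, through which mTOR and LARP1 control their translation. Bulk RNA gives the messenger level of a whole tissue, and fewer cells of a type cannot be told apart from less RNA per cell.

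The starts of 8 mouse genes are shown because this feature was not used to choose the rows. They were picked after the runs were seen, 6 with a long run and RPLP0 and RPL11 with a short one, and most starts in the set have no long run. Each line holds the 30 bases around the annotated start, 15 before it and 15 from it on, from RefSeq on GRCm38.p6, read 5′ to 3′ on the gene's own strand. Capitals mark the longest run of C and T that touches the 5 bases on either side of the start.
RPS27, chr3:90213634-90213663, minus strand: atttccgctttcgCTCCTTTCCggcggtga
RPL15, chr14:18270972-18271001, minus strand: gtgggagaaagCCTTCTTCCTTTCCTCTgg
RPS18, chr17:33955651-33955680, minus strand: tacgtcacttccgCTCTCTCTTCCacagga
RPL27A, chr7:109519180-109519209, plus strand: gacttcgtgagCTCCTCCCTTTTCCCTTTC
RPLP0, chr5:115559452-115559481, plus strand: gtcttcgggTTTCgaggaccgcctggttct
RPL11, chr4:136053379-136053408, minus strand: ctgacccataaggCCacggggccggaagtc
RPL7A, chr2:26910792-26910821, plus strand: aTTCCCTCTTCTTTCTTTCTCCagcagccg
RPL38, chr11:114668565-114668594, plus strand: agcggaagcctcgTTCTTTCCCCgttctct
The run was 9 bases long in RPS27, 17 in RPL15, 11 in RPS18, 21 in RPL7A and 10 in RPL38. In RPL27A it was 20 bases and reached past the stretch shown. At the annotated starts of RPLP0 and RPL11 it was 4 and 2 bases.

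Windows were found for 53 of the 73 symbols, matched without regard to case, and gave 63 annotated starts. A run of 8 or more pyrimidines touched 20 of the 63 starts (31.7%), against 9.72% of 32851 mouse starts. Over the 300 bases from 250 before to 50 after the start, CCGGAAG, the core bound by ETS and GABP factors, was present on either strand in 33.3% of the ribosomal windows and in 8.86% of all windows. AAGATGG, the core of the YY1 motif, was present in 15.9% and 6.34%, and TATAAA in 7.94% and 13.6%. The AAGATGG windows were 9 of 44 (20.5%) for genes above 0 in at most 13 libraries, 3 of them from nearby starts of RPL35A. For genes above 0 in at least 19 libraries they were 1 of 19 (5.26%). These are letter matches that describe the windows and not sites of binding.

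The values are FPKM, read numbers scaled for the length of the gene and the depth of the library. Mouse reads had been counted on the human build GRCh38.p13, so a gene's level depends on how much of its sequence mouse and human share. Levels were compared between tissues within a gene for this reason, and genes with near-identical copies, which ribosomal proteins have in large number, are uncertain. Assigned reads, worked back from the spacing of the FPKM values, ran from 193902 to 642436 a library, lowest in liver and highest in brain. Markers of each tissue, from lists for 8 tissues, had their highest mean in the labelled tissue for 8 of 9 heart, 8 of 8 brain, 5 of 7 liver, 4 of 4 kidney, 4 of 6 smooth muscle (in aorta), 2 of 2 lung, 2 of 2 stomach and 2 of 4 spleen and blood genes.

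The 73 genes fell into a widely and a sparsely detected set, a split made after the values were seen. In 19 genes the value was above 0 in at least 19 libraries, and in 14 of these in all 24. They held 225707 of the 226023 ribosomal protein reads, and RPS27 alone held 40.7%. The other 54 genes were above 0 in at most 13 libraries and had 316 reads together, with at most 8 reads of a gene in any library. A gene was tested where 3 or more libraries reached 1 FPKM, which kept 4260 rows of the table and 44 of the 73 genes, all 19 widely detected ones and 25 of the 54 sparse ones. No gene was kept through 1 tissue only, and 8 were kept through 2 tissues.

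Spleen had the highest level of ribosomal protein messenger and brain the lowest. On log2(FPKM + 1), limma set the level of a tissue against the average of the remaining 7, and a gene was called at a Benjamini-Hochberg adjusted p under 0.05 over the 4260 rows and a difference of at least 1. In spleen 20 of the 44 tested genes were called higher, against 11.5% of all rows, and they were the 19 widely detected genes and RPLP1. In brain 18 were called lower, against 10.5% of all rows. The 18 were RPLP1 and the widely detected genes other than RPL12 and RPL32. Among the 2481 rows above 0 in at least 19 libraries, the shares were 14.2% higher in spleen and 14.6% lower in brain.

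The median difference of the 19 genes was 1.81 in spleen, where it was -0.14 over all rows tested, and -1.67 in brain, where it was -0.02 over all rows. Both comparisons use all 24 libraries and are not independent of each other. No gene of the 44 was called lower in spleen, where 13.5% of all rows were, or higher in brain, where 23.9% were. In those directions limma gave none at an unadjusted p under 0.05, while limma voom on reads gave 1 lower in spleen and 0 higher in brain. All 19 differences stayed positive in spleen and negative in brain under every scaling tried. Rescaled to equal sums (TPM), the medians were 1.65 in spleen and -1.41 in brain, with all rows at -0.22 and 0.19.

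**Figure D1:**
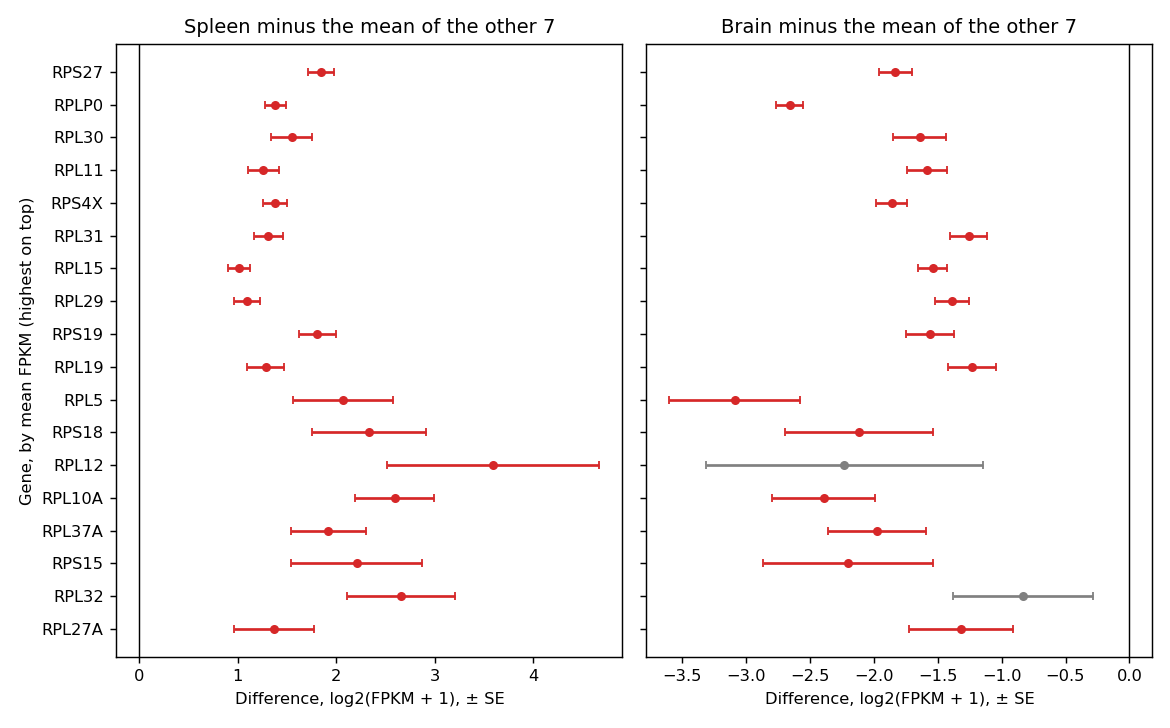
Difference of 18 of the widely detected ribosomal protein genes in spleen (left) and brain (right) from the mean of the other 7 tissues, on log2(FPKM + 1), with the standard error as bars and genes ordered by mean FPKM. Red points were called by limma and grey points were not; all 18 points are red in spleen, and RPL12 and RPL32 are grey in brain.

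As a share of all FPKM in a library, the 73 genes made up 18.3% ± 3.60 in spleen (SD, n = 3) and 2.80% ± 0.217 in brain. The total holds only reads assigned on the human build, so these are not shares of all messenger in a tissue. The single spleen libraries were at 17.4%, 22.2% and 15.2%, and the brain libraries at 3.04%, 2.76% and 2.62%. Stomach had 9.73% ± 0.442, lung 9.55% ± 0.483, liver 7.70% ± 0.85, aorta 7.16% ± 0.550, kidney 5.22% ± 0.542 and heart 5.07% ± 0.511. As a share of reads, which does not weight short genes more, spleen had 5.25% ± 1.21 and brain 0.683% ± 0.0625. On either measure the lowest spleen library lay above the highest library of any other tissue, and the highest brain library below the lowest of any other.

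RPS27, a zinc-binding protein of the small subunit, had the highest FPKM of the set. Its FPKM was 41295, 53392 and 29440 in the 3 spleen libraries, and 5148, 3977 and 3939 in the 3 brain libraries. In between, it was 21301, 17271 and 20393 in stomach, 19636, 18351 and 17914 in lung, and 16226, 16108 and 14726 in aorta. Liver had 15885, 12041 and 11039, heart 8843, 9278 and 7404, and kidney 9226, 8425 and 6963. The spleen libraries lay above all 21 others and the brain libraries below all 21 others. The limma difference was 1.85 ± 0.13 (SE) in spleen (adjusted p = 1.04e-09) and -1.83 ± 0.13 in brain (adjusted p = 1.17e-10). Spleen was called higher than each of the other 7 tissues. Stomach and lung, next in order, were not called apart (adjusted p = 0.848), nor were heart and kidney (adjusted p = 0.912).

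RPS4X, the X-linked form of another small-subunit protein, followed the same order at the ends. Its FPKM was 1711, 2169 and 1491 in spleen and 292, 241 and 215 in brain, and neither group overlapped any other tissue. The limma difference was 1.38 ± 0.12 in spleen (adjusted p = 1.89e-08) and -1.86 ± 0.12 in brain (adjusted p = 2.98e-11). Brain was called lower than each of the other 7 tissues. RPS19, a small-subunit protein whose loss causes Diamond-Blackfan anaemia, had 835, 1331 and 987 FPKM in spleen and 136, 157 and 110.0 in brain. The highest value outside spleen was 603, in lung, and 1 heart library, at 135, fell within the range of the brain libraries. RPS19 and RPS27 were the only widely detected genes called higher in spleen than in each of the other 7 tissues, against 1.5% of all rows. In aorta 2 genes were called so, RPL7A among them, against 1.64%, which made 4 genes of the 44 in any tissue, against 24.1%.

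RPS18 and RPS15 had 467 and 117 reads over the 24 libraries and were less precise. RPS18, in the head of the small subunit, was at 139, 270 and 321 FPKM in spleen, 3.13, 45.3 and 18.4 in brain and 22.0, 22.7 and 10.5 in kidney. RPS15, also in the head, was at 11.7, 55.7 and 93.2 in spleen, and its lowest spleen library lay inside the range of aorta, heart, liver and lung.

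RPLP0 is the base of the ribosomal stalk, which carries the RPLP1 and RPLP2 dimers and draws in elongation factors. Its FPKM was 4753, 6226 and 5813 in spleen and 4254, 3956 and 4242 in stomach. Brain had 469.7, 487 and 479.9, with an SD of 8.85 around a mean of 479. Every other library lay between 1748 and 3602, so brain stood apart from all and spleen was above all. The limma difference was -2.66 ± 0.11 in brain (adjusted p = 1.38e-14) and 1.38 ± 0.11 in spleen (adjusted p = 4.29e-09). Kidney, lung, heart and aorta, with means of 2436, 2410, 2403 and 2281, did not differ beyond their spread from their neighbours in that order (limma adjusted p of 0.733 and above).

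The other stalk proteins had few reads. RPLP1 had 31 reads in all, at 6.51, 17.7 and 7.01 FPKM in spleen, and was listed at 0 in all brain and kidney libraries. It was called higher in spleen and lower in brain and kidney, differences on log2(FPKM + 1) that depend on the pseudocount because the lower groups are at 0. RPLP2 had 1 read in each of aorta replicates 1 and 3 and none elsewhere. RPL12, which sits beside RPLP0 at the stalk base, was at 18.1, 700 and 418 FPKM in spleen, and the first of these lay below 10 of the 21 libraries of other tissues. Its spleen call (3.60 ± 1.08, limma adjusted p = 0.0109) was lost without spleen replicate 2 or 3.

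RPL5 and RPL11 bind the 5S ribosomal RNA together and, when unassembled, bind MDM2. RPL11 had 1973, 3229 and 1990 FPKM in spleen and 386, 451 and 413 in brain, and neither tissue overlapped any other. Its limma difference was 1.26 ± 0.16 in spleen (adjusted p = 2.49e-06) and -1.58 ± 0.16 in brain (adjusted p = 2.90e-08). RPL5 was at 149, 296 and 219 in spleen and 10.04, 27.2 and 1.64 in brain. Its brain difference was -3.09 ± 0.51 (adjusted p = 2.97e-05), the most negative of the 19, and brain was called lower than each of the other 7 tissues. The highest lung library, at 176, lay above the lowest spleen library of RPL5.

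The remaining large-subunit genes gave spleen differences from 1.01 (RPL15) to 2.66 (RPL32). RPL30 had 3691, 6566 and 3828 FPKM in spleen and 570, 809 and 605 in brain, and the highest lung library, at 3700, overlapped spleen. RPL31 and RPL19, which lie near the exit of the peptide tunnel, had spleen means of 1127 ± 266 and 716 ± 281 and brain means of 233 ± 24.3 and 153 ± 48.1. RPL29 had 904 ± 221 in spleen and 199 ± 39.5 in brain. RPL15 had 882 ± 123 in spleen, 735 ± 14.2 in stomach and 187 ± 26.2 in brain. Its spleen difference of 1.01 ± 0.11 (limma adjusted p = 5.17e-07) stood at the minimum of 1, and the call was lost without any of 6 single libraries, spleen replicate 2 among them.

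**Figure D2:**
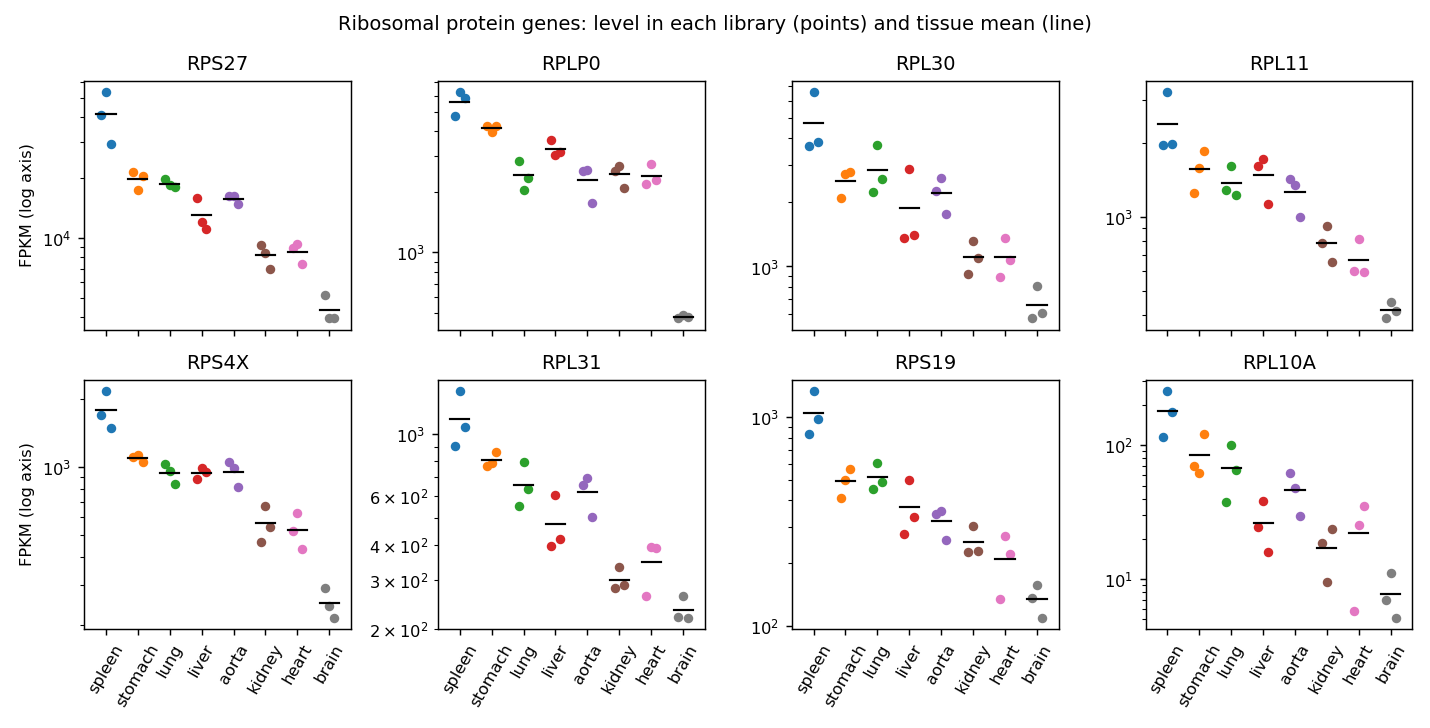
FPKM on a log axis of 8 ribosomal protein genes in each of the 24 libraries, with 3 points for each tissue and a line at their mean. Spleen is at the left end and highest in every panel and brain is at the right end and lowest, and for RPLP0 the 3 brain points lie near 479 while no other library is under 1748.

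RPL10A, a protein of the L1 stalk at which transfer RNA leaves, had 115, 252 and 177 FPKM in spleen and 7.05, 11.1 and 5.17 in brain. RPL37A, a zinc-binding protein, had 70.9, 222 and 138.5 in spleen and 13.8, 16.6 and 6.19 in brain. RPL32 and RPL27A, with 204 and 105 reads, were called higher in spleen with means of 30.6 ± 13.6 and 5.38 ± 2.57. RPL27A was called lower in brain and kidney, where it had 2 and 1 reads, and RPL32 was not called in brain (-0.83 ± 0.55, limma adjusted p = 0.232).

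Over the 19 genes, the mean in spleen was 4.53-fold (RPL29) to 86.1-fold (RPL12) that in brain, with a median of 9.91-fold. All 19 were called in that pair of tissues (limma, largest adjusted p = 0.00536). The RPL12 ratio rests on 5 reads in the 3 brain libraries. All 3 spleen libraries lay above the other 21 in 9 genes, and all 3 brain libraries below the other 21 in 7. The shares of all rows that separate in this way are not given here, so these 2 counts only describe the 19 genes. Spleen replicate 2 was the highest of all 24 libraries in 16 of the 19 genes. Without it the spleen count was 14, and RPL12, RPL15, RPL19, RPL29 and RPS15 were among the widely detected genes no longer called.

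The other 6 tissues lay between these. The median difference of the 19 genes was 0.64 in lung, 0.59 in stomach, 0.35 in aorta, 0.13 in liver, -0.68 in heart and -0.81 in kidney. Over all rows tested it was 0.15, -0.08, -0.18, -0.33, -0.44 and -0.05 in the same order. These middle values moved with the scaling. Heart was at -0.16 and liver at 0.07 with median-ratio scaling, which gave 0.41 in lung, and aorta was at 0.12 with TPM scaling. In lung and stomach 17 of the 19 lay above 0, and in heart and kidney 17 lay below it, where median-ratio scaling gave 14 above in lung and 14 below in heart. Lung and stomach held the next rank in 9 genes each and aorta in 1. Kidney had the lowest mean in RPL12, RPL27A, RPL32 and RPS18, and brain in the other 15. In kidney 8 genes were called lower, against 8.12% of all rows. They were RPL10A, RPL12, RPL27A, RPL32, RPL37A, RPS15, RPS18 and RPLP1, all from the less abundant genes. The call of RPL37A (-1.04 ± 0.38, limma adjusted p = 0.0418) was lost without any of 9 single libraries. Abundant genes were lower by less than the minimum of 1, such as RPS27 (-0.79, limma adjusted p = 7.89e-05) and RPL31 (-0.85, limma adjusted p = 0.000124). RPLP0 and RPL29, both at 0.01, were not lower. With no minimum difference, 15 of the 19 widely detected genes were called lower in kidney and 0 higher. Of all rows called in kidney at that setting, 49.6% were higher. Without kidney replicate 1, 2 or 3 the kidney count was 4, 3 or 5.

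Heart had 2 genes called lower, RPL10A and RPL32, against 17.4% of all rows, and stomach had the same 2 genes called higher, against 7.65%. Sparse genes such as RPL3 lay too close to 0 to be called lower in heart or liver. Others moved by less than the minimum of 1, such as RPS27 in heart (-0.72, limma adjusted p = 0.000142) and RPLP0 in stomach (0.90, limma adjusted p = 2.93e-06). With no minimum difference, 12 of the 19 widely detected genes were called lower in heart and 0 higher. Rows of the table in general went the same way in heart, where 19.7% of all rows called at that setting were higher. The median difference in heart was -0.51 over the 2481 widely detected rows and -0.68 over the 19 genes. In stomach 11 of the 19 were called higher with no minimum and 0 lower, and 50% of all rows called there were higher. RPL10A was at 5.75, 25.6 and 35.0 FPKM in heart and 70.0, 61.6 and 121 in stomach. Heart had no call without heart replicate 1 or with median-ratio scaling, and 6 calls without replicate 2. Stomach had none without stomach replicate 3 and 1 without replicate 1. No gene was called by limma in liver, where 27.1% of all rows were, or in lung, where 15.6% were. At an unadjusted p under 0.05, 4 genes were higher in liver and 9 in lung. The limma voom fit called 3 in liver, all of them sparse, and 1 in lung, a widely detected gene. Shares of all rows called at an unadjusted p or with no minimum difference are not given here, so those counts only describe these genes.

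Over the 8 tissues together, limma's F test called 27 of the 44 genes, 19 widely detected and 8 sparse, against 77.6% of all rows. A call in at least 1 tissue was made for 34 genes, against 71.4% of all rows. The 34 include 19 widely detected and 15 sparse genes.

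**Figure D3:**
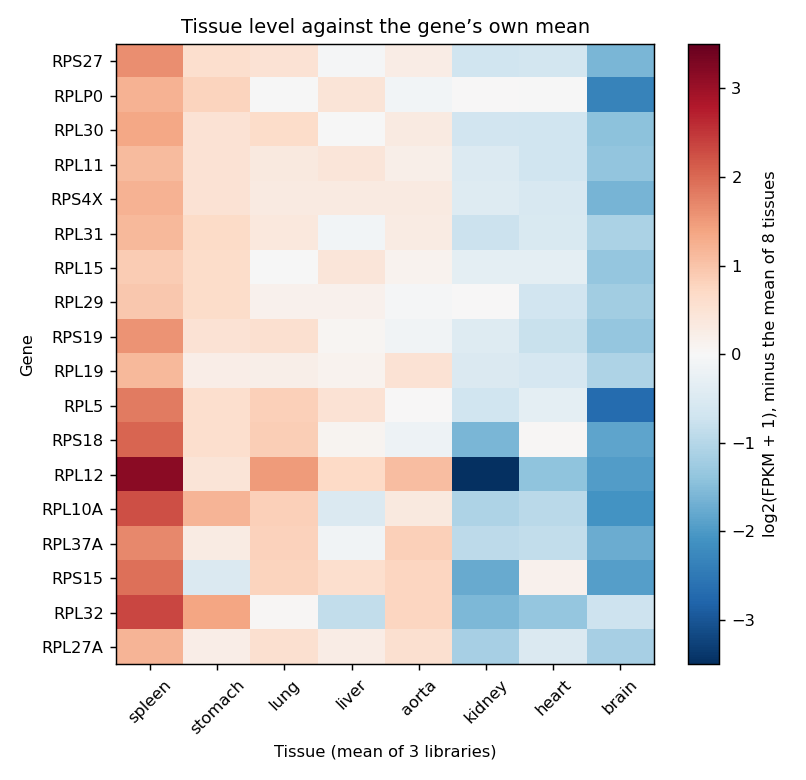
Mean log2(FPKM + 1) of each tissue minus the mean of the 8 tissues, for 18 of the widely detected genes ordered by mean FPKM, red above and blue below the gene's own mean. The spleen column is red in all 18 rows and the brain column blue in all 18, with the deepest blue at RPL12 in kidney, where 1 read was seen in 3 libraries.

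The genes did not keep one proportion to each other. RPLP0 as a share of RPS27 within a library ran from 24.6% to 30.9% in heart, 27.4% to 31.9% in kidney, 22.7% to 28.5% in liver and 19.97% to 22.9% in stomach. It ran from 11.9% to 15.8% in aorta, 11.2% to 14.4% in lung, 11.5% to 19.74% in spleen and 9.12% to 12.3% in brain. The first 4 tissues did not overlap the last 4, a grouping seen in the values and not tested, and spleen replicate 3 came close to the lowest stomach library. Spleen and brain, at opposite ends of the level, were thus on the same side in this ratio.

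Set against the geometric mean of the 14 genes seen in all libraries, RPLP0 was at 3.24 ± 0.17 (log2, SD, n = 3) in kidney, 3.14 ± 0.13 in heart, 2.13 ± 0.48 in lung and 1.95 ± 0.30 in brain. RPS27 moved little on this scale, from 4.89 ± 0.37 in liver to 5.22 ± 0.37 in spleen, a range of 0.34 that is near the mean SD of 0.30. RPL31 stood at 0.91 ± 0.19 in brain and 0.04 ± 0.05 in spleen. The geometric mean weights genes of few reads as much as abundant ones, and RPL5, with 25 reads in brain, stood at -4.02 ± 1.76 there. RPL15, RPL19, RPL30 and RPS19 also had their highest value in brain. The part of the reference in the RPL31 values was not tested. RPL29 stood at 0.84 ± 0.06 in kidney and -0.28 ± 0.17 in spleen.

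**Figure D4:**
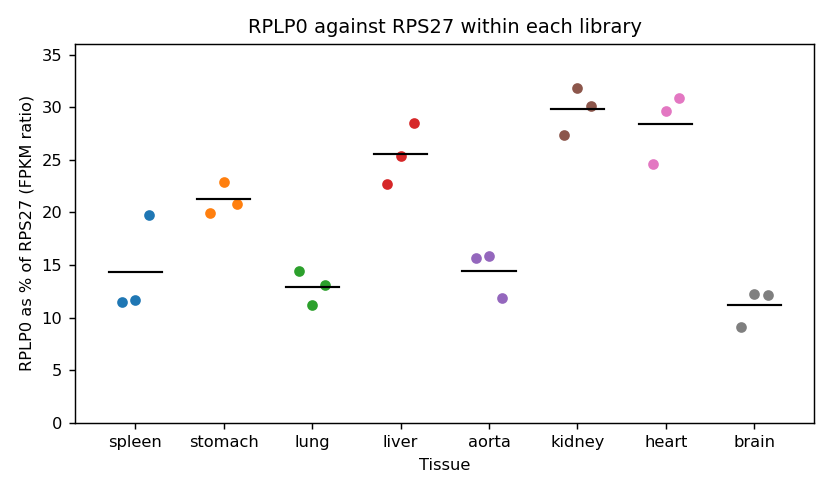
RPLP0 FPKM as a percentage of RPS27 FPKM in each library, with 3 points for each tissue and a line at their mean. Stomach, liver, kidney and heart lie at 19.97% or above and spleen, lung, aorta and brain at 19.74% or below.

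The 54 sparse genes had their highest mean in aorta in 43 cases. In aorta 14 of the 44 tested genes were called higher, against 9.58% of all rows, and all 14 were sparse. They included RPL3, RPL4, RPL7A, RPL23A, RPL26, RPL27, RPL34 and RPL38 of the large subunit and RPS2, RPS3, RPS6, RPS12 and RPS27A of the small one, where RPS27A is made as a fusion with ubiquitin and RPS6 is the target of the S6 kinases. Each of the 14 rested on 3 to 9 reads in the 3 aorta libraries. The other 21 libraries together held 1 to 7 reads of each. Aorta libraries counted toward the filter for all 14, so the filter favoured a difference there, and differences this close to 0 depend on the pseudocount. RPS6 had 4 reads in aorta and 5 in heart replicate 1 alone, and its mean was higher in heart (3.42 FPKM) than in aorta (2.33).

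The signal came from 2 of the 3 aorta libraries. Aorta replicate 1 had 44 of the 54 genes above 0 and 108 reads, and replicate 3 had 29 genes and 51 reads. Replicate 2 had 9 genes and 9 reads, and the 22 libraries other than replicates 1 and 3 ran from 1 to 11 genes and 1 to 17 reads. RPL7A, a large-subunit protein, was at 8.15, 0 and 5.44 FPKM, RPL23A at 17.4, 0 and 4.98, and RPL3, near the peptidyl transferase centre, at 5.58, 0 and 5.59.

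Reads of the 13 mitochondrially encoded genes moved with this. They numbered 363 in aorta replicate 1, 216 in replicate 3 and 6 in replicate 2, and no library outside aorta had more than 19. All 11 of these genes that were tested were called higher in aorta, against 9.58% of all rows. These calls rest on aorta replicates 1 and 3 and on genes with few reads in any other library. Leaving these genes out of the scaling could change little, because they held only 363 of the 414952 reads of aorta replicate 1. Aorta then had 14 calls as before, which is no test of their part in the result. Without aorta replicates 1 and 3 the aorta count was 1 gene, with 10 of the 14 no longer tested because they left the filter and 3 tested and not called. The lone aorta library is then assumed to vary like the other tissues. Without replicate 1 alone the count was 2, with 7 genes out of the filter, and without replicate 3 alone it was 6, with 5 out. The 19 widely detected genes had no call in aorta.

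**Figure D5:**
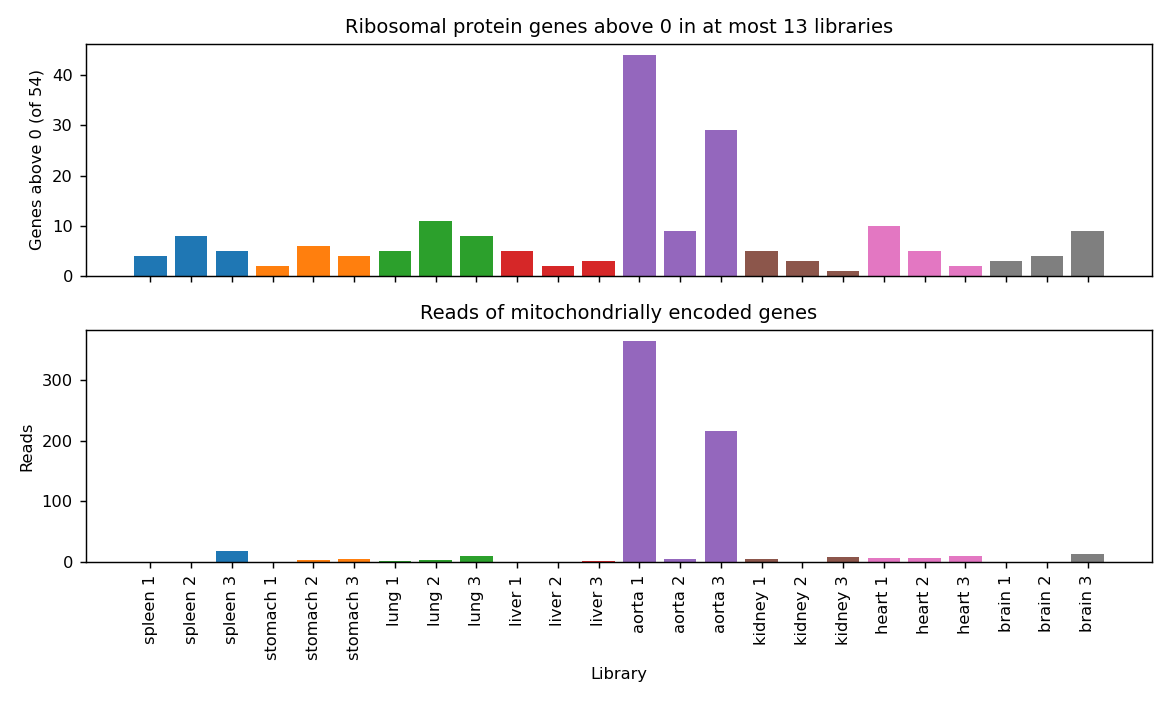
Number of the 54 sparsely detected ribosomal protein genes above 0 in each library (top) and reads of mitochondrially encoded genes in the same library (bottom). Aorta 1 and 3 stand apart in both panels, with 44 and 29 genes and 363 and 216 reads, and aorta 2 lies among the other libraries.

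The sparse genes had few reads beside the widely detected ones in the same libraries. RPL3 had 7 and RPS6 had 10 over all 24, where RPS27 had 91882. The part of the human build and of near-identical copies in this was not tested. In 12 of the 54, the 24 libraries held 1 read in all, and the median was 5 reads. RPS19BP1 had its 1 read in aorta replicate 1, RPS4Y1 its 1 read in aorta replicate 3, and RPL22L1, a close relative of RPL22, 1 read in each of 3 libraries of brain, lung and stomach. A count of 0 allows up to 3 reads in a library, and a 0 here does not show that a tissue lacks the messenger.

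Other genes of protein synthesis were taken from lists made for this set. Of 12 elongation factors 5 were tested, and 4 were called higher in spleen (EEF1A1, EEF1B2, EEF1G and EEF2) and 3 lower in brain (EEF1A1, EEF1B2 and EIF5A), beside the 11.5% and 10.5% of all rows. EEF1A1, which brings transfer RNA to the ribosome, had its highest mean in liver and its lowest in heart. Its mean was 3918 ± 363 FPKM in liver, 3132 ± 448 in spleen, 703 ± 96.4 in brain and 472 ± 109 in heart, and it was called higher in liver (1.39 ± 0.12, limma adjusted p = 8.04e-09) and lower in heart (-2.13 ± 0.12, adjusted p = 1.40e-11).

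Of 42 initiation factors 22 were tested, and 3 were called higher in spleen (EIF3D, EIF3H and PABPC1) and 4 lower in brain (EIF1, EIF3M, EIF4E2 and PABPC1). The spleen count is near the 11.5% of all rows, and the share over all rows in brain was 10.5%. PABPC1, the poly(A)-binding protein, whose messenger also has a terminal oligopyrimidine motif, had 8566 ± 1616 FPKM in spleen, 877 ± 66.6 in brain and 759 ± 28.3 in heart. Its difference was 2.00 ± 0.08 in spleen (limma adjusted p = 3.52e-13). EIF5 was called higher in liver (1.54 ± 0.10, limma adjusted p = 1.80e-10), as 1 of 5 higher and 1 lower there, near the 27.1% of all rows called in liver.

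Of 33 ribosome assembly genes 8 were tested, and 5 were called higher in spleen, with none lower there and none called in brain. Over all rows the shares were 11.5% higher and 13.5% lower in spleen, and 23.9% higher and 10.5% lower in brain. They were NPM1, DKC1, NOP56 and NOP58, which act in the nucleolus on ribosomal RNA and its particles, and UBTF, which acts with RNA polymerase I. NOP58 had 183 ± 41.4 FPKM in spleen and between 23.1 and 104 as means elsewhere. NOP56 had 37.0 ± 7.39 in spleen, with 19.2 ± 11.6 in stomach as the next mean, and UBTF had 49.6 ± 15.3, with 26.2 ± 6.52 in brain. The other genes were lower and less clear. NPM1 had 10.6 ± 5.38 in spleen and 8.77 ± 8.37 in aorta, and DKC1 had 4.55 ± 2.82 in spleen and 1.64 ± 1.43 in brain. RACK1, a small-subunit protein outside the naming rule, was called higher in spleen (25.3 ± 11.5 FPKM) and lower in heart (0.833 ± 1.44). Of 14 kinases and regulators 7 were tested, and RPS6KA1 was called higher and RHEB lower in spleen, near the 11.5% and 13.5% of all rows. MTOR was called higher in kidney (2.46 ± 0.35, limma adjusted p = 1.67e-05) and lower in liver, RPS6KA3 lower in liver and LARP1 lower in aorta. The shares over all rows in these directions are not given here, so these are single calls and not a result about the list. Of 17 mitochondrial ribosomal proteins 2 were tested, and MRPS34 was called higher in heart. It was near the floor, at 1.85 ± 1.60 FPKM in heart and 1.02 ± 1.77 in kidney. The share of all rows called higher in heart is not given here.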

How the data were processed

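Total RNA was isolated with TRIzol, and a VAHTS kit was used to prepare libraries, per the labels' protocols. Trimming with fastp, alignment with HISAT2 and counting with HTSeq on GRCh38.p13 are named in the submitters' processing notes, with no versions. Annotation and strand setting: not given in the sources used here. For 7493 rows, FPKM values were deposited by the authors. They were analysed as log2(FPKM + 1), which understates changes of low genes. A model of 8 tissue means with a mean-variance trend was fitted in limma 3.58.1 (R 4.3.3) to 4260 rows that reached 1 FPKM in 3 or more libraries. Whole reads were recovered from the FPKM steps for 100% of rows (tolerance 1e-06). On simulated data the number was exact for 99.8% of 6877 rows. For spleen, limma called 29.5% of 112 genes simulated with a 2-fold change and 98.9% of 88 with a 4-fold change, among 4182 rows. The simulated tissues shared the same profile and a fixed spread, apart from the changed genes, which were drawn from those with more reads. These shares need not hold for the sparse genes or for tissues whose libraries vary more. The reads carry no molecular identifiers, so limits cover counting error only. Python 3.11.15 with numpy 2.4.6, pandas 2.3.3 and matplotlib 3.10.9 were used.

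The members and lists were chosen with earlier results of these data known. The genes named are the tested ribosomal protein genes called in a tissue, less 2 that count in the totals and are not reported here, the 6 with the highest mean, RPL3 and RPL22L1, with others as examples. Of the other lists they are the called genes with the 3 smallest adjusted p, and further called genes chosen after their values were seen. RPL3L, RPL39L, RPL10L and RPS27L were not analysed here. The settings varied were the pseudocount (0.1 and 5), the filter (none, and 5 FPKM), median-ratio scaling, leaving out mitochondrially encoded genes, voom on recovered reads, a replicate block, no minimum difference, leaving out aorta replicates 1 and 3, and each library in turn. TPM scaling was added after the data were seen.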

Additional observations from a re-analysis of the deposited data

How the results depend on the processing

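Under the alternatives tried, the spleen count stayed between 18 and 20 and the brain count between 15 and 18, except 32 in brain with voom on recovered reads, where 15 sparse genes were called lower and the cause was not tested. The other counts moved more. With a pseudocount of 5, aorta had 2 calls, heart 0, kidney 4, lung 1 and stomach 1, with 21 genes called in at least 1 tissue and 2 above each of the other tissues. With a pseudocount of 0.1, and with no filter, heart and stomach had 1 each. With a filter at 5 FPKM, aorta had 0, with 20 and 2 for the same pair of counts, because the sparse genes were no longer tested. With median-ratio scaling heart had 0 and stomach 1. With voom heart had 1, kidney 4, liver 3 and lung 1, and 1 gene stood above each of the other tissues. With no minimum difference heart had 12, kidney 16, liver 4, lung 5 and stomach 11, and 7 genes stood above each of the others. Without aorta replicates 1 and 3 aorta and stomach had 1 each, with 21 and 2, where 30 genes were tested against 44 and the aorta group was 1 library. With TPM scaling stomach had 1, and 1 gene stood above each of the others. Leaving out each library in turn gave 2 to 15 calls in aorta, 14 to 19 in brain, 0 to 6 in heart, 3 to 9 in kidney, 0 to 1 in liver, 0 to 2 in lung, 14 to 21 in spleen and 0 to 2 in stomach. It gave 22 to 35 genes called in at least 1 tissue, with 22 without aorta replicate 1, and 2 to 12 above each of the others. That last count was 12 without aorta replicate 2, and 2 without aorta replicate 1, lung replicate 1, lung replicate 3 or spleen replicate 2. Liver had its 1 call without liver replicate 1 or 2, and lung had 2 without lung replicate 1 and 1 without heart replicate 3, kidney replicate 1 or kidney replicate 3. None of the 64 called differences of the ribosomal protein genes changed sign in these runs, while differences that were not called did, as in heart, lung and aorta under other scalings. The cause of these moves was not tested beyond what is stated. Over all rows of the table, the share of calls that were higher moved in aorta from 53.9% to 41.0% with TPM scaling, in heart from 26.9% to 51.6% with median-ratio scaling, in spleen from 45.9% to 35.4% with voom and in brain from 69.4% to 55.2% with voom.

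Same-numbered libraries of different tissues did not deviate together (median r of 0.02 over 84 pairs, with 2 pairs over 0.1). The number was therefore not used to pair samples in the main fit. A low r cannot show whether such libraries share an animal, which the labels leave unknown. With the replicate block, spleen kept a count of 20 and brain of 18, the F test called 28 genes against 27, and no other count moved.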
